A study of Mus musculus with 8 samples.

Results

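The Iroquois transcription factors were the 6 genes whose symbol in the deposited table was Irx1, Irx2, Irx3, Irx4, Irx5 or Irx6, of 48490 genes in all, and each was found there once. They were described in progeny of hypertrophic chondrocytes (the swollen cartilage cells nearest to the bone in a growth plate) from the proximal tibia of mice at postnatal day 5. All mice carried Col10a1Cre, a recombinase driven by a gene of hypertrophic chondrocytes, and the reporter Rosa26-Tdtomato, so that cells with a history of Col10a1 activity were red. GoF (gain of function) mice were Col10a1Cre;Rosa26-Tdtomato;Ctnnb1-exon3 Δ/+ and had lost exon 3 on 1 allele of the β-catenin gene, the part through which the protein is marked for degradation. LoF (loss of function) mice were Col10a1Cre;Rosa26-Tdtomato;Ctnnb1Δ/Δ, with β-catenin deleted on both alleles. WT mice were Col10a1Cre;Rosa26-Tdtomato with no Ctnnb1 mutation, so recombination was limited to cells in which Col10a1Cre had been active. Each of the 2 GoF, 4 LoF and 2 WT libraries was made by Smart-seq2 from a pool of 70 red cells picked by hand. The labels do not say whether the libraries of a group were taken from different mice, so the p-values refer to the spread among these libraries and that spread may be technical. In pooled cells, fewer cells of a type and less RNA per cell cannot be told apart.

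Iroquois factors are homeodomain proteins of the TALE class, whose DNA-binding domain carries extra residues between its first helices. In the mouse their genes lie in a pair of clusters, Irx3, Irx5 and Irx6 in one and Irx1, Irx2 and Irx4 in the other, and Irx3 and Irx5 act together in the early limb and in the heart. In human fat precursor cells, IRX3 and IRX5 are known for their link to the obesity-associated region within FTO, and mutation of human IRX5 causes a syndrome of the face and skeleton. The study linked this family to the choice of hypertrophic chondrocyte descendants between bone and fat.

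Irx5 and Irx3 carry the results below, and the homeobox stretch of both is shown because it is where members of the family resemble each other most and where short reads could be shared. The stretch covers 63 codons, or 189 bases, and was read from the GENCODE M21 transcripts on GRCm38. It spans coding bases 346 to 534 of the Irx5 transcript (ENSMUST00000210246.1) and 400 to 588 of the Irx3 transcript (ENSMUST00000093312.5). The sequences run 5′ to 3′ on the sense strand, and capitals mark bases that differ from Irx5.
Irx5: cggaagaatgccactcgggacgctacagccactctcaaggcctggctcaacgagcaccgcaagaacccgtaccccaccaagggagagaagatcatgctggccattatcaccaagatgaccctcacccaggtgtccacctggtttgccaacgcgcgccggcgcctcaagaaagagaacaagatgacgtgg
Irx3: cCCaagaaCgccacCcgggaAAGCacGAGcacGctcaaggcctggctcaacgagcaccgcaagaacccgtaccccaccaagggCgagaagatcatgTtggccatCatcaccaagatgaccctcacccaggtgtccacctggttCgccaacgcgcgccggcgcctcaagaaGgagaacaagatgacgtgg
Irx3 differed from Irx5 at 17 of the 189 bases (91.0% identity), and 4 codons encoded another residue. The capitals lay mostly in the first part of the stretch, while the later part, which encodes the DNA-contacting recognition helix, held few. Irx2 differed at 19 bases with 0 codons that encoded another residue, Irx6 at 19 bases with 5 such codons, Irx4 at 22 with 4, and Irx1 at 24 with 5. Over whole transcripts, 17 of 3078 windows of 50 bases in Irx5 (0.552%) occurred also in another gene, in Irx2 or Irx3. In Irx3, 115 of 2762 windows (4.16%) did so, 40 of them in other Iroquois genes, and Irx3os shared 75 windows with it. Strand is not recorded by Smart-seq2, and reads from the stretch that transcripts of Irx3 and its antisense partner Irx3os share, the 75 windows above, cannot be told apart. The 2 genes overlap by 1653 bases, introns included.

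Some libraries stood apart before any member was compared. Both GoF libraries and LoF libraries 2 and 3 had Y-linked transcripts, while LoF libraries 1 and 4 and both WT libraries had Xist, so GoF and WT differ in sex throughout and sex and genotype cannot be told apart between them. Markers of endothelium summed to 0.541 to 1.19 FPKM (fragments scaled by transcript length and library total, as deposited) in GoF, 0.564 to 57.1 in LoF and 0.334 to 0.549 in WT. The value of 57.1 belonged to LoF library 3, with Emcn at 38.5, Pecam1 at 9.40, Cdh5 at 4.32 and Tek at 4.32, and results for Irx5 and Irx3 are given with and without that library. The table had 12587 to 13944 genes above 0 per library and FPKM sums of 293194 to 382101, and relative depth ran from 0.904 to 1.16 of WT library 2. Ctnnb1, the targeted gene, was at 72.0 and 86.7 FPKM in GoF, 81.0, 67.3, 70.4 and 81.1 in LoF, and 137 and 146 in WT. All mutant libraries lay below WT. Of all genes tested, 26.2% had GoF below WT and 9.88% had LoF below WT. Neither difference of Ctnnb1 from WT passed the test in limma (adjusted p = 0.176 in GoF and 0.110 in LoF). There is 1 value per gene, which does not resolve exons.

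Irx5 (ENSMUSG00000031737.11; mm10 chromosome 8, 92357625 to 92376286, plus strand) was the member with the highest level in GoF and the widest difference between groups. In LoF and WT the mean of Irx3 was higher, at 1.30 and 1.74 FPKM against 1.11 and 1.45. The level of Irx5 in FPKM was 12.1 and 11.8 in the GoF libraries, 0.494, 0.455, 2.98 and 0.504 in the LoF libraries, and 0.529 and 2.37 in the WT libraries. Both GoF libraries lay above all 6 others. Of all genes tested, 14.8% had both GoF libraries above the 4 LoF libraries and 21.8% had them above the WT libraries. LoF library 3 and WT library 2 lay above the other 4 libraries outside GoF, and the LoF and WT ranges overlapped. Means were 12.0 ± 0.201 FPKM in GoF (SD, n = 2), 1.11 ± 1.25 in LoF (SD, n = 4) and 1.45 ± 1.30 in WT (SD, n = 2). Among the genes above 0 in its own library, Irx5 stood at percentiles 75.1 and 75.4 in GoF, between 10.8 and 36.6 in LoF, and at 12.1 and 39.5 in WT.

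**Figure D1:**
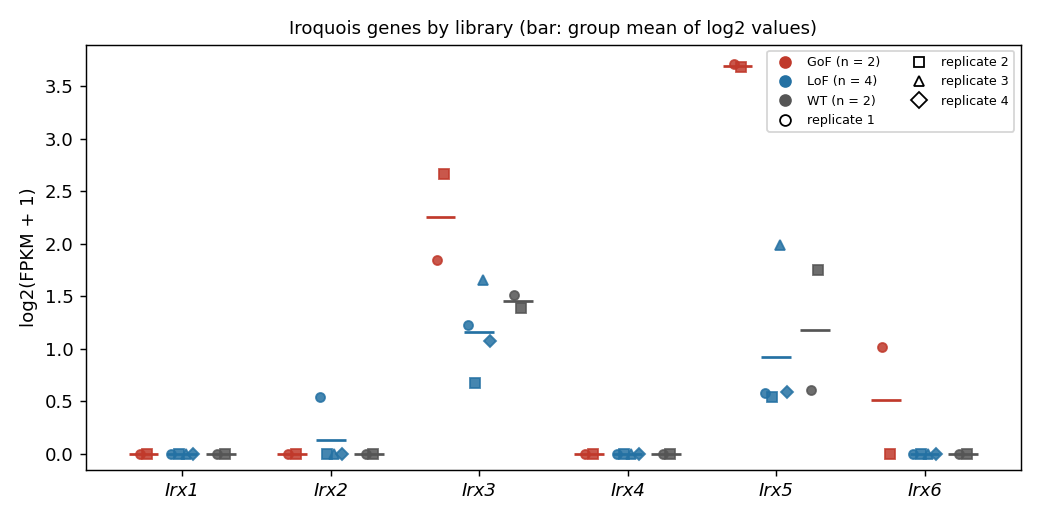
Level of the 6 Iroquois genes as log2(FPKM + 1) on the vertical axis, with 1 point per library (GoF, n = 2; LoF, n = 4; WT, n = 2) and a bar at the group mean. Irx5 in GoF, at 12.1 and 11.8 FPKM, stands above every other point, and Irx1 and Irx4 lie at 0 throughout.

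Irx5 rose in GoF relative to LoF, by 2.77 on the log2(FPKM + 1) scale (SE 0.58, 95% interval 1.49 to 4.05, adjusted p = 0.0127 in limma, adjusted over 12888 genes). The ratio of mean FPKM was 10.8. Within the libraries with Y-linked transcripts, Irx5 was at 12.1 and 11.8 FPKM in GoF, against 0.455 and 2.98 in LoF. Of the 2 testable members it was the 1 called in that comparison, in which 11.6% of all genes tested passed and 5.97% were higher in GoF. The call ended without GoF library 1 (adjusted p = 0.106) or without GoF library 2 (adjusted p = 0.0872), fits that leave GoF with 1 library assumed to vary like the others. It also ended with sex as a covariate (2.43, SE 0.65, adjusted p = 0.0600 in limma). The sex term rests on the LoF libraries alone, since both GoF libraries had Y-linked transcripts and both WT libraries had Xist. LoF library 3, with the highest Irx5 in LoF, is among those with Y-linked transcripts. Without LoF library 3 the difference was 3.13 (SE 0.48, adjusted p = 0.00484 in limma).

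Against WT, the difference of Irx5 in GoF was of a like size but did not pass the test (2.51, SE 0.67, 95% interval 1.03 to 4.00, unadjusted p = 0.00358, adjusted p = 0.0904 in limma). Of the 2 testable members, 0 were called, against 2.31% of all genes. An unadjusted p under 0.05 was found for 1 of the 2, and for 1849 of all 12888 genes tested. Without LoF library 3, which enters only through the shared estimate of spread, the same difference passed (adjusted p = 0.0446), the 1 of 16 alternatives in which it did. It was 1.83 (SE 0.92, adjusted p = 0.533 in limma) with sex as a covariate and 1.94 without WT library 1. The value with sex as a covariate carries over a sex difference seen within LoF alone, so it does not separate sex from genotype here.

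In LoF relative to WT, Irx5 differed by -0.26 (SE 0.58, 95% interval -1.54 to 1.03, adjusted p = 0.897), and the sign turned without WT library 2 (0.31, SE 0.73, adjusted p = 0.933). Without LoF library 3 the difference was -0.61 (SE 0.48, adjusted p = 0.638). Of the 2 testable members, 0 were called in limma, against 1.23% of all genes. An unadjusted p under 0.05 was found for 0 of the 2, and for 1725 of all 12888 genes tested. The low end of the Irx5 values was uniform. After each library was set to the step of its smallest values relative to WT library 2, Irx5 came to 0.527, 0.528 and 0.526 in LoF libraries 1, 2 and 4 and to 0.529 in WT library 1. The same scaling gave 10.9 and 13.5 in GoF, 2.88 in LoF library 3 and 2.37 in WT library 2. Read totals are unknown, so whether any of the 4 equal values exceeds a single fragment was not tested, and a further fall of Irx5 in LoF below WT library 1 was not detectable at this depth.

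The ordering of Irx5 levels by group mean was GoF, WT, LoF. The neighbours LoF and WT did not differ beyond their spread, and GoF differed from LoF but not, at the threshold used, from WT.

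**Figure D2:**
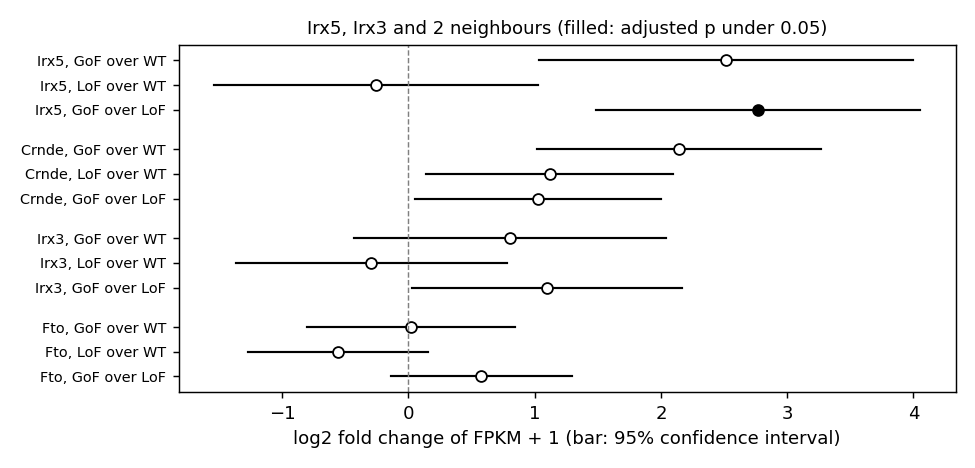
Difference on the log2(FPKM + 1) scale (horizontal axis) for Irx5, its divergent noncoding neighbour Crnde, Irx3 and Fto in the 3 comparisons, with limma's 95% interval as a bar. The filled point, Irx5 in GoF over LoF at 2.77, has an adjusted p under 0.05, and the open points do not.

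Irx3 (ENSMUSG00000031734.13; chromosome 8, 91798525 to 91802067, minus strand), the partner of Irx5 in limb and heart, was above 0 in all 8 libraries at low levels. It stood at 2.59 and 5.36 FPKM in GoF, at 1.34, 0.600, 2.15 and 1.11 in LoF, and at 1.86 and 1.62 in WT. Means were 3.97 ± 1.96 FPKM in GoF (SD, n = 2), 1.30 ± 0.646 in LoF (SD, n = 4) and 1.74 ± 0.168 in WT (SD, n = 2), with LoF the lowest and GoF the highest, and no neighbours in that order differed past the test. The GoF libraries differed from each other by more than GoF library 1 did from WT. Both GoF libraries lay above all others, patterns that 14.8% of all genes tested showed against LoF and 21.8% against WT, and LoF and WT overlapped.

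The difference of Irx3 in GoF over LoF was 1.10 (SE 0.48, 95% interval 0.03 to 2.17, unadjusted p = 0.0457, adjusted p = 0.187 in limma). In GoF over WT it was 0.80 (SE 0.56, 95% interval -0.43 to 2.04, adjusted p = 0.591), and in LoF over WT -0.29 (SE 0.48, 95% interval -1.37 to 0.78, adjusted p = 0.854). Without LoF library 3 the values were 1.26 (SE 0.47, adjusted p = 0.124) in GoF over LoF and -0.46 (SE 0.47, adjusted p = 0.730) in LoF over WT. None of the 3 differences passed the test in the main fit or in any of the 16 alternatives run for each. The intervals reach 2.17 and 2.04 on the log2 scale, so equal levels of Irx3 were not shown.

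FPKM is scaled by length, so the levels of both members could be set against each other within a library. Irx5 minus Irx3, as a difference of log2(FPKM + 1), was 1.87 and 1.01 in the GoF libraries. It was -0.65, -0.14, 0.34 and -0.49 in the LoF libraries, and -0.90 and 0.36 in the WT libraries. Irx5 stood above Irx3 in both GoF libraries by more than in any other, while in LoF and WT either gene could be the higher. The mean difference was larger by 1.67 in GoF than in LoF, with an exact two-sided permutation p = 0.0667, the smallest that 15 splits allow. It was larger by 1.71 in GoF than in WT (exact permutation p = 0.333, the smallest that 6 splits allow), and by 0.04 in LoF than in WT (exact permutation p = 1).

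Irx6 (ENSMUSG00000031738.14; chromosome 8, 92674288 to 92680956, plus strand), the third gene of that cluster, was at 1.03 FPKM in GoF library 1 and listed at 0 in the other 7 libraries. Irx2 (ENSMUSG00000001504.10; chromosome 13, 72628820 to 72634198, plus strand) was at 0.458 FPKM in LoF library 1 and listed at 0 elsewhere. Irx1 (ENSMUSG00000060969.8; chromosome 13, 71957921 to 71963723, minus strand) and Irx4 (ENSMUSG00000021604.15; chromosome 13, 73260479 to 73269608, plus strand), a gene of the heart ventricle, were listed at 0 in all 8. Of the 6 members, Irx3 and Irx5 were the ones above 0 in more than 1 library. The 4 genes did not reach an FPKM of 1 in 2 libraries and were not tested in the main fit. With no filter on low values, Irx6 differed by 0.51 in GoF over WT (SE 0.29, adjusted p = 0.559) and by 0.51 in GoF over LoF (SE 0.25, adjusted p = 0.331), and Irx2 by 0.14 in LoF over WT (SE 0.17, adjusted p = 0.812).

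The genes around the clusters were examined next. Crnde, a noncoding RNA transcribed away from Irx5 on the opposite strand (chromosome 8, 92326033 to 92356120), has its 5′ end 1505 bases from that of Irx5. It stood at 28.1 and 27.6 FPKM in GoF, at 13.2, 6.42, 18.2 and 19.1 in LoF, and at 5.39 and 5.70 in WT. The 3 groups did not overlap, in the order GoF, LoF, WT. All 4 LoF libraries thus lay above WT for Crnde, as for 11.5% of all genes tested, and not for Irx5. GoF lay above LoF for 14.8% of all genes tested and above WT for 21.8%. No difference of Crnde passed the test in limma, at 2.14 in GoF over WT (SE 0.51, adjusted p = 0.0623), 1.12 in LoF over WT (SE 0.44, adjusted p = 0.295) and 1.03 in GoF over LoF (SE 0.44, adjusted p = 0.176). The first of these passed in 3 of 16 alternatives, with adjusted p down to 0.0297. The antisense gene Irx3os was at 0 and 0.472 FPKM in GoF, at 0.461 in LoF library 2 and at 0 in the other 3 LoF libraries, and at 0.635 and 0.528 in WT, too low to be tested.

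The 5′ ends of Irx3 and Irx5 are 555558 bases apart and those of Irx5 and Irx6 316663 bases. Within 1 Mb of the members of this cluster started 73 other genes, of which 28 were above 0 in at least 1 library and 10 were tested. Within 1 Mb of Irx1, Irx2 and Irx4 started 29, of which 14 were above 0 and 11 were tested. Of these 21 tested neighbours, 0 were called in limma in GoF over WT (4 at an unadjusted p under 0.05) and 0 in LoF over WT (2 at an unadjusted p under 0.05). In GoF over LoF, 1 was called. Over all 12888 genes the called shares were 2.31%, 1.23% and 11.6% in the same order, and 1849 and 1725 genes had an unadjusted p under 0.05 in GoF over WT and LoF over WT. The median difference of the neighbours was 0.02 in GoF over WT, 0.00 in LoF over WT and 0.20 in GoF over LoF, against -0.08, 0.06 and -0.17 for all genes tested.

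The called neighbour was Clptm1l, a membrane protein gene beyond Irx4, at 81.9 and 94.0 FPKM in GoF, 28.9, 36.5, 36.4 and 29.4 in LoF, and 49.1 and 45.2 in WT. All 3 groups were apart. Of all genes tested, 21.8% had GoF above WT, 14.8% had GoF above LoF and 9.88% had LoF below WT. The difference of Clptm1l in GoF over LoF was 1.40 (SE 0.26, adjusted p = 0.00715 in limma). Its differences in GoF over WT (0.88, adjusted p = 0.196) and LoF over WT (-0.52, adjusted p = 0.437) did not pass. Fto, the RNA demethylase gene whose human introns hold the obesity-associated region, was at 19.6 and 23.0 FPKM in GoF, 12.1, 12.1, 13.9 and 18.5 in LoF, and 22.4 and 19.6 in WT. GoF and WT overlapped and LoF lay below both (below WT as for 9.88% of all genes tested), with no difference past the test (0.02 in GoF over WT, adjusted p = 1.00; -0.56 in LoF over WT, adjusted p = 0.513; 0.58 in GoF over LoF, adjusted p = 0.306). The other neighbours with a mean of at least 10 FPKM, Mmp2, Chd9, Ndufs6, Mrpl36, Lpcat1, Rpl9-ps4 and the predicted gene Gm10263, were not called in any comparison. Nkd2, a Wnt feedback inhibitor in the region of Irx4, was at 6.06 and 5.59 FPKM in GoF, 3.21, 1.72, 1.27 and 0.735 in LoF, and 0.910 and 0.460 in WT. Its GoF libraries were above all others (2.03 in GoF over WT, adjusted p = 0.106 in limma). Of all genes tested, 21.8% had GoF above WT and 14.8% had GoF above LoF.

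**Figure D3:**
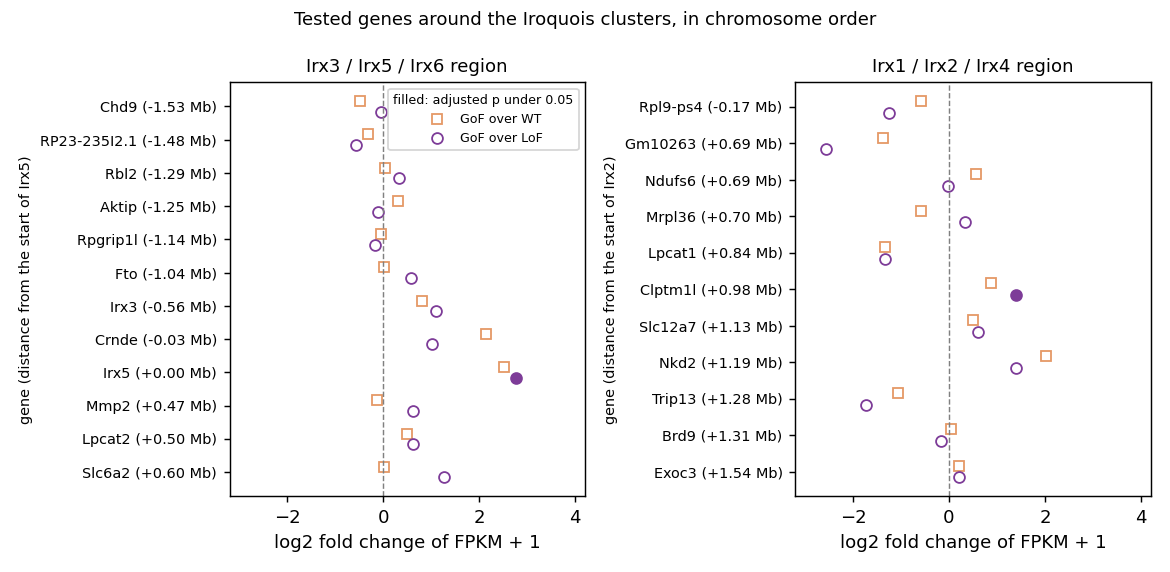
Differences on the log2(FPKM + 1) scale (horizontal axis) of the tested genes whose start lies within 1 Mb of an Iroquois gene, in chromosome order with the distance from the start of Irx5 or Irx2, for GoF over WT (squares) and GoF over LoF (circles). Irx5 (2.77) and Clptm1l (1.40) in GoF over LoF are the filled points, and Crnde beside Irx5 is open in both comparisons.

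Other genes of the TALE class were followed because they are the nearest relatives and the known DNA-binding partners of homeodomain proteins. Of 12 such genes outside the family, 10 were tested, and Pbx4 and Meis2 did not reach the filter. In GoF over WT 0 were higher and 1 was lower, beside 1.41% and 0.9% of all genes tested (median -0.22, against -0.08 for all genes). In LoF over WT 0 were called in limma, with 3 at an unadjusted p under 0.05 (median 0.22, against 0.06). Over all 12888 genes tested, 1.23% were called there and 1725 had an unadjusted p under 0.05. In GoF over LoF 1 was higher and 2 were lower (median -1.06, against -0.17), beside 5.97% and 5.68% of all genes tested.

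Mkx (Mohawk), a tendon regulator often placed closest to the Iroquois genes, was the 1 that rose in GoF relative to LoF. It was at 8.50 and 5.56 FPKM in GoF, 1.10, 0, 0 and 0.188 in LoF, and 4.12 and 5.23 in WT. LoF lay below all other libraries, and GoF lay above WT by little. Of all genes tested, 9.88% had LoF below WT, 14.8% had GoF above LoF and 21.8% had GoF above WT. The difference was 2.65 in GoF over LoF (SE 0.49, adjusted p = 0.00699), 0.48 in GoF over WT (SE 0.57, adjusted p = 0.781) and -2.17 in LoF over WT (SE 0.49, adjusted p = 0.0710). The first call ended without GoF library 1 (adjusted p = 0.107). For Mkx the LoF libraries stood apart, and for Irx5 the GoF libraries did. The difference between these patterns was not tested. Of the other tendon markers, Tnmd was listed at 0 in all libraries. The summed level of the 4 tendon markers, Mkx included, was 20.6 to 27.6 FPKM in GoF, 16.0 to 69.2 in LoF and 22.5 to 33.7 in WT. Fmod was the largest part of that sum, at 8.98 and 21.4 FPKM in GoF, 13.6, 17.7, 34.4 and 69.0 in LoF, and 16.4 and 27.8 in WT.

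Meis3, of the Meis group of Hox and Pbx partners, fell in GoF. It was at 2.23 and 1.25 FPKM in GoF, 13.3, 15.4, 30.6 and 14.0 in LoF, and 26.2 and 15.3 in WT. Both GoF libraries lay below all others, as for 26.2% of genes tested against WT and 18.7% against LoF, and LoF and WT overlapped. The difference was -2.97 in GoF over WT (SE 0.51, adjusted p = 0.0162) and -2.76 in GoF over LoF (SE 0.44, adjusted p = 0.00355). The first ended when either GoF or either WT library was left out (adjusted p = 0.0650 to 0.181), and the second passed in all 16 alternatives run.

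Pknox2, another Meis relative, was listed at 0 in both GoF libraries, at 1.18, 1.43, 1.90 and 2.11 FPKM in LoF, and at 0 and 0.368 in WT. LoF was above GoF, as for 18.7% of all genes tested, and above WT, as for 11.5%. The fitted difference in GoF over LoF was -1.39 (SE 0.39, adjusted p = 0.0466 in limma), which passed in 5 of 16 alternatives. The remaining tested members, among them Meis1, Pbx2, Pbx3, Pknox1, Tgif1 and Tgif2, were not called in any comparison. Of these, Tgif1, a corepressor of TGF-β signalling, had the highest level in GoF, at 14.3 and 8.10 FPKM, with 3.38, 8.04, 12.9 and 10.7 in LoF and 7.27 and 6.84 in WT. Meis1 was at 0 and 0.842 FPKM in GoF, 2.40, 1.43, 10.7 and 4.42 in LoF, and 2.03 and 2.84 in WT. GoF was below the rest for Meis1 (-1.82 in GoF over LoF, SE 0.65, adjusted p = 0.109 in limma). Of all genes tested, 26.2% had GoF below WT and 18.7% had GoF below LoF.

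**Figure D4:**
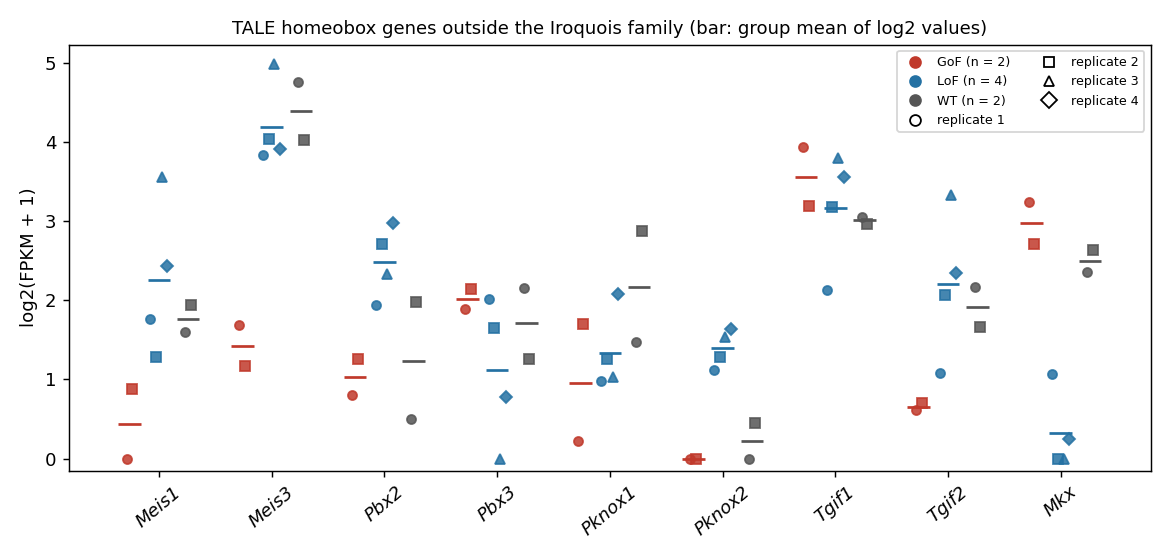
Level of tested TALE homeobox genes outside the Iroquois family as log2(FPKM + 1), with 1 point per library and a bar at the group mean. Mkx is lowest in LoF (0 to 1.10 FPKM), Meis3 is lowest in GoF (2.23 and 1.25 FPKM), and Pknox2 lies at 0 in both GoF libraries.

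A list of 15 genes studied in other tissues as partners, upstream regulators or targets of Iroquois factors was then read in the same way. Gata3, Gata4, Gata6, Shh, Kcnip2 and Bmp10 were listed at 0 in all 8 libraries. Kcnd2, a potassium channel gene that Irx5 represses in the mouse heart, was at 0.101 FPKM in LoF library 2 and at 0 elsewhere. Of the 7 tested, 1 was lower in GoF over WT, 0 were called in limma in LoF over WT (1 at an unadjusted p under 0.05), and 1 was higher and 1 lower in GoF over LoF. In LoF over WT, 1725 of all 12888 genes tested had an unadjusted p under 0.05. Of all genes tested, 0.9% were lower in GoF over WT, 1.23% were called in LoF over WT, and 5.97% were higher and 5.68% lower in GoF over LoF. The partner list's medians were 0.05, 0.51 and -0.64 in the same order, against -0.08, 0.06 and -0.17 for all genes tested.

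The lower gene was Cxcl12, a chemokine of marrow stroma that Irx5 represses in Xenopus. It was at 0.674 and 0 FPKM in GoF, 553, 1572, 482 and 806 in LoF, and 236 and 49.1 in WT. The groups were fully apart. Of all genes tested, 26.2% had GoF below WT, 18.7% had GoF below LoF and 11.5% had LoF above WT. The differences of Cxcl12 in limma were -6.40 in GoF over WT (SE 0.72, adjusted p = 0.00268), -9.20 in GoF over LoF (SE 0.62, adjusted p = 5.81e-05) and 2.81 in LoF over WT (SE 0.62, adjusted p = 0.0671). The higher gene was Bmp4, a bone morphogenetic ligand, at 22.6 and 42.1 FPKM in GoF, 0, 4.39, 0 and 5.61 in LoF, and 2.12 and 7.16 in WT, with a difference of 3.70 in GoF over LoF (SE 0.86, adjusted p = 0.0215) and 2.66 in GoF over WT (SE 1.00, adjusted p = 0.244). GoF lay above all other libraries for Bmp4, a position that 21.8% of all genes tested held against WT and 14.8% against LoF.

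Trps1, a GATA-type repressor that binds human IRX5, was at 9.90 and 8.42 FPKM in GoF, 5.86, 5.10, 10.7 and 3.57 in LoF, and 5.57 and 3.65 in WT, and was not called. Gli3, which acts with Irx3 and Irx5 in the mouse limb bud, was at 1.12 and 1.46 FPKM in GoF, 2.80, 4.18, 3.03 and 3.07 in LoF, and 3.38 and 1.90 in WT. Its GoF libraries were the lowest, as for 26.2% of all genes tested against WT and 18.7% against LoF. No difference of Gli3 passed the test in limma (-0.89 in GoF over LoF, SE 0.44, adjusted p = 0.244). Gja1 (connexin 43), Ncor1 and Hdac1 were not called either. Whether any of these genes depends on Irx3 or Irx5 in these cells was not tested.

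Beside Irx5, genes of the bone, fat and Wnt lists moved in the same libraries. Of 13 bone genes tested, GoF had 8 at higher levels than LoF (among them Alpl, Bglap, Col1a1, Dlx3, Ibsp, Msx2 and Sp7) and 2 at lower levels (Msx1 and Spp1). Of 11 fat genes tested, GoF had 6 below LoF (Cd36, Cebpa, Ebf1, Fabp4, Lpl and Pparg) and 0 above. Of 12 Wnt genes tested, GoF had 6 above LoF (Axin2, Bambi, Dkk1, Nkd1, Notum and Znrf3) and 0 below. In that comparison 5.97% of the whole table passed as higher in GoF and 5.68% as lower. The median differences of the bone, fat and Wnt lists were 2.06, -2.52 and 1.54, against -0.17 for all genes tested. Against WT, GoF had 1 bone gene higher and 1 lower, 1 fat gene lower and 3 Wnt genes higher, where 1.41% of the whole table passed as higher and 0.9% as lower. Against WT, LoF had 1 bone gene higher and 3 lower, 3 fat genes higher and 1 Wnt gene lower, beside 0.566% and 0.667% of all genes tested as higher and lower.

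Some of these genes, among them Msx2 and Axin2, shared the step of Irx5, high in GoF and low in both LoF and WT. Of all genes tested, 21.8% had GoF above WT and 14.8% had GoF above LoF. Unlike Irx5, Msx2 and Axin2 passed the test in GoF over WT (adjusted p = 0.00279 and 0.0429 in limma). For others WT lay above LoF, as for Bambi, with means of 120 FPKM in GoF, 11.9 in WT and 2.82 in LoF. Msx2, a homeobox gene of bone-forming cells, was at 12.7 and 17.5 FPKM in GoF and listed at 0 in the 6 others. Axin2, a feedback inhibitor of Wnt signalling, was at 5.26 and 2.81 FPKM in GoF, listed at 0 in each LoF library, and at 0 and 0.323 in WT. Col1a1, the main collagen gene of bone, did not share the step of Irx5. It was at 6090 and 4626 FPKM in GoF, 821, 244, 325 and 678 in LoF, and 5470 and 6681 in WT. Among genes of the fat side, Ucp1, the gene of brown and beige fat, was listed at 0 in all 8 libraries, and Prdm16 did not exceed 0.141 FPKM.

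The named genes nearest to Irx5 in profile were Dhrs1, Nebl, Hist1h2be, Grrp1, Acp6 and Ell2, with root mean square differences of 0.316 to 0.462 between mean-centred log2(FPKM + 1) values over the 8 libraries, among 10946 genes. Dhrs1, a short-chain dehydrogenase gene and the nearest, was at 126 and 103 FPKM in GoF, 17.6, 17.5, 39.6 and 23.3 in LoF, and 16.5 and 26.6 in WT. It shared with Irx5 the 2 high GoF libraries and, among LoF, the highest value in library 3. Ell2, an elongation factor of RNA polymerase II, was at 37.0 and 34.0 FPKM in GoF, 4.15, 6.44, 9.16 and 6.52 in LoF, and 8.68 and 15.0 in WT. Hist1h2be, a histone H2B gene, was at 4.99 and 5.44 FPKM in GoF, at 0.322 in LoF library 3 and 0 in the other LoF libraries, and at 0.269 and 0.537 in WT.

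The genes nearest to Irx3 were Fosl2, Galnt7, Galk1, Map2k6, Ckb and Cog2, with root mean square differences of 0.109 to 0.229. Fosl2, an AP-1 subunit with roles in bone, was at 1.41 and 3.67 FPKM in GoF, 0.602, 0.315, 1.05 and 0.436 in LoF, and 0.844 and 0.735 in WT. Its level was highest in GoF library 2 and lowest in LoF library 2, as for Irx3. Ckb, the brain-type creatine kinase, was at 194 and 232 FPKM in GoF, 72.3, 71.8, 141 and 93.6 in LoF, and 110 and 98.5 in WT. These profiles were chosen for their likeness over the same libraries, so no test applies to them, and the lists for Irx5 and Irx3 had 0 genes in common.

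**Figure D5:**
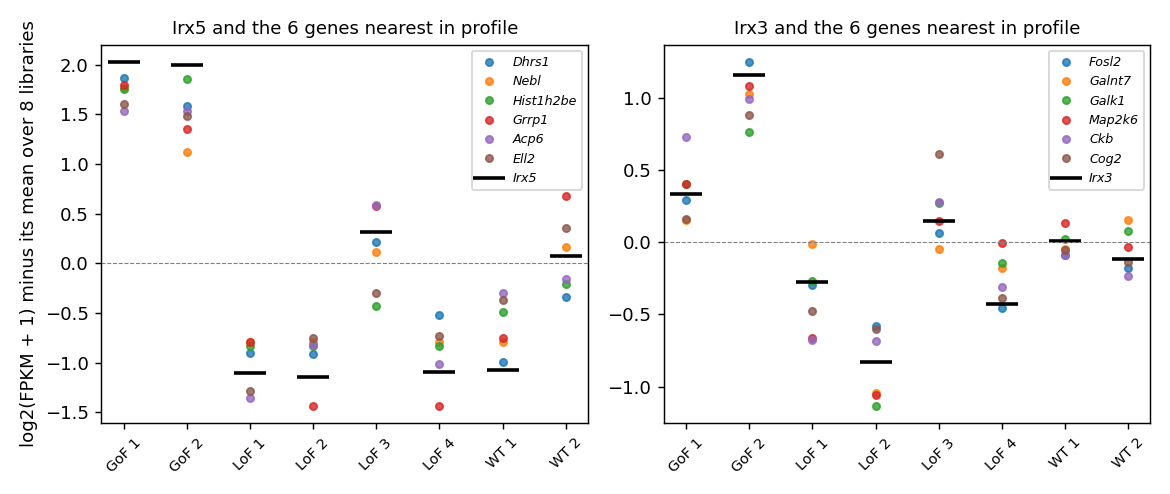
Mean-centred log2(FPKM + 1) by library (vertical axis) of Irx5, left, and Irx3, right, as black bars, with the 6 named genes of the smallest root mean square difference from each as points. Around Irx5 the GoF libraries stand apart from the other 6, and around Irx3 GoF library 2 is the highest and LoF library 2 the lowest.

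Libraries differed in ways other than genotype. Summed over 10 markers, hypertrophic chondrocyte descendant genes stood at 9919 to 14032 FPKM in GoF, 13105 to 17272 in LoF and 9073 to 12154 in WT, and Col10a1 itself was above 0 in all 8. These sums rest on a few abundant genes that differed in opposite directions, with Ibsp at 9070 FPKM in GoF against 572 in LoF, Spp1 at 1570 against 9836 and Mmp13 at 48.8 against 4082 on average. Of the 10 markers, 6 were higher and 2 lower in GoF over LoF, beside 5.97% and 5.68% of all genes tested. Alpl, Ibsp, Sp7 and Spp1 among them were counted with the bone genes too. LoF library 3, with the most endothelial markers, was also the LoF library with the most Irx5 and Irx3. Erythroid markers summed to 895 to 1838 FPKM in GoF, 76.0 to 2273 in LoF and 2557 to 10567 in WT, with the top in WT library 2, the WT library with more Irx5. Their part in the Irx5 values of those libraries was not tested. Mural markers summed to 3.94 to 4.84 FPKM in GoF, 35.2 to 69.7 in LoF and 22.6 to 34.7 in WT, with Myh11 listed at 0 throughout. Osteoclast markers summed to 96.6 to 98.8 FPKM in GoF, 58.9 to 73.0 in LoF and 63.8 to 72.4 in WT, with Calcr and Ocstamp listed at 0. Osteoclast sums were thus higher in GoF than in all other libraries, as Irx5 was, and mural sums were lower. Both rest on a few genes. The osteoclast sums in GoF were mostly Ctsk, at 76.5 and 77.8 FPKM, and Acp5, at 22.3 and 17.6. Both genes lay above all other libraries in GoF. Of all genes tested, 21.8% had GoF above WT and 14.8% had GoF above LoF. Of the mural markers, Acta2 (0 and 0.336 FPKM in GoF) and Mcam (listed at 0 in GoF) lay below all other libraries. Over all genes tested, 26.2% had GoF below WT and 18.7% had GoF below LoF. Cspg4 and Rgs5 in GoF overlapped with LoF and with WT. The part of mural and osteoclast markers in the Irx5 difference was not tested either. Myeloid markers summed to 7.21 to 12.0 FPKM in GoF, 14.0 to 29.5 in LoF and 9.14 to 19.8 in WT, and the WT range overlapped both others. Epithelial and neural markers did not exceed sums of 1.94 and 0.656 FPKM, with Krt5, Krt14 and Sox10 listed at 0.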

How the data were processed

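Pools of 70 tdTomato-expressing cells were profiled by Smart-seq2, per the labels' protocols. The authors deposited FPKM per gene and library. The submitters' processing notes name HISAT2, SAMtools 0.1.18, Cufflinks, HTSeq and mm10 without roles. Which annotation release they used is not given in the sources used here. Spans in the table equalled GENCODE M21 (GRCm38) for 42522 of 48490 genes (87.7%), which supplied strands, transcripts and the homeobox sequences. FPKM carries no read totals, so no counting intervals were computed, and a few very abundant genes can depress the remaining values of their library.

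Of 48555 lines, 65 repeated another line. Values were used as log2(FPKM + 1), which understates changes of low genes. The 12888 genes that reached an FPKM of 1 in 2 or more of the 8 libraries were tested in limma 3.58.1 (R 4.3.3), with group means over all 8 libraries, a mean-variance trend and Benjamini-Hochberg adjustment over all genes tested, at a threshold of 0.05. Total degrees of freedom were 10.1. Relative depth was the commonest ratio of low FPKM values to WT library 2. The code was tested on simulated data. The members and gene lists were chosen with earlier results of these data known. Named genes were all members, called members of the lists or those a result turns on, genes starting within 1 Mb that were called or had a mean FPKM of at least 10, and the 6 named genes nearest to each tested member in profile. Genes named outside that rule were chosen after their values were seen. The 16 alternatives were a pseudocount of 0.1, no filter, quantile normalization, median ratio scaling, no trend, only the groups compared, the replicate number as a block, sex as a covariate and leaving out each library. A few genes of the lists enter the counts and are not reported here by name.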

Additional observations from a re-analysis of the deposited data

Results flagged for a closer look

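Dixon's criterion was applied to FPKM, without the log2 step, in 16 genes whose LoF values were not all equal. They came from the Iroquois and TALE lists, with Irx3os and Crnde. In 6 of the 16, 1 LoF library lay far from the other 3. The share of all genes tested that meet the criterion was not computed. LoF library 3 was the high one for Irx5 (2.98 FPKM) and for Meis3 (30.6 FPKM). The same library had the highest sum of endothelial markers, whose part in these values was not tested. For Irx2 (0.458 FPKM in LoF library 1), Irx3os (0.461 FPKM in LoF library 2) and Meis2 (1.36 FPKM in LoF library 2) the other 3 LoF libraries were listed at 0, so the criterion is met by any single value above 0. Mkx (1.10 FPKM in LoF library 1) was close to that case, at 0, 0 and 0.188 FPKM in the others. Chance gives about 1 such case in 20 groups of normally distributed values, a rate that does not apply to these 4 genes. Whether it holds for Irx5 and Meis3, in FPKM without the log2 step, was not tested.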

How the results depend on the processing

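Irx3 kept its direction and stayed short of the threshold in all 16 alternatives of each comparison, with differences of 0.68 to 1.57 in GoF over LoF, 0.39 to 1.21 in GoF over WT and -0.51 to -0.13 in LoF over WT. Irx5 in GoF over LoF kept its direction in all 16 (2.43 to 3.77) and its call in 13. It missed the threshold with sex as a covariate (2.43, adjusted p = 0.0600), and single libraries left out gave 2.64 to 3.13. Irx5 in GoF over WT passed in 1 of 16 (1.83 to 3.27, adjusted p = 0.0446 to 0.533), with 1.94 to 3.08 when single libraries were left out. Irx5 in LoF over WT ran from -0.83 to 0.31 when single libraries were left out, the sign turning without WT library 2. In LoF over WT, Meis3 ran from -0.57 to 0.16, with 0.16 without WT library 1. Pknox2 in GoF over WT ran from -0.45 to 0, with 0 without WT library 2, where both groups are then at 0. Of the other TALE genes, the count called in GoF over LoF was 3, and 1 to 2 with single libraries left out or 1 with the replicate block. In GoF over WT it was 1, and 0 with only the groups compared, with the replicate block or with sex as a covariate, and 0 to 1 with single libraries left out. The causes were not tested.

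Same-numbered libraries did not deviate together over all genes tested (correlations -0.0069 to 0.03 over 6 pairs). In GoF and in WT the deviations of library 2 mirror those of library 1, so the pairs are not separate checks. Whether the numbers pair the samples is thus not known. Replicate numbers 3 and 4 occur in LoF alone, so with the replicate block LoF libraries 3 and 4 do not enter the differences. In that fit, Irx5 in GoF over LoF was 3.14 (adjusted p = 0.0412 in limma), a value without the high LoF library 3. The calls of Mkx in GoF over LoF (2.44, adjusted p = 0.0642), Meis3 in GoF over WT (adjusted p = 0.0627) and Pknox2 in GoF over LoF (adjusted p = 0.146) ended. Median ratio scaling and quantile normalization moved the median of all genes in GoF over LoF to -0.05 and -0.03, against -0.17, and Irx5 there to 2.89 and 2.97. Over all genes, calls in GoF over WT numbered 298, and 15 with the block, 11 with sex as a covariate and 0 with only the groups compared. With 2 libraries in GoF and in WT and unknown read totals, differences of Irx3 and of the 4 members near 0 smaller than their intervals could not be resolved.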
